A study of Mus musculus with 9 samples.

Results

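AU-rich stretches of conserved mouse 5′ untranslated regions were described here through 54 of the 161 amplicons in the data, namely those in which G plus C made up 50% or less of the nucleotides read. They came from 32 of the 69 transcripts read, and their G plus C content ran from 35.7% to 49.8% with a median of 44.7%, against 63.8% in the other 107 amplicons. Each amplicon is named by its gene and by its limits in the RefSeq transcript, as the deposited names give them, and 185 to 215 nucleotides of each were read. All samples were total RNA of E14 embryonic stem cells, a mouse line with the genotype label E14TG2a, probed with dimethyl sulfate (DMS), and the labels state 3 independent samples per condition. Living cells of the untreated group met 1.6% DMS at 37 °C for 6 min, buffered by 250 mM bicine. The ATP-depleted group had the same exposure after 10 min without glucose, with sodium azide and 2-deoxyglucose at 10 mM each, and both agents stayed in the later media. The third group is labelled in vitro refolded, and the labels do not state its DMS conditions. Background signal was not measured, since samples unexposed to DMS were not analysed here, and signal along single amplicons cannot show whether the cells carried markers of their type. With 3 samples a group, p-values measure the spread between these samples.

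DMS methylates A and C where their base-pairing face is free, and reverse transcription then leaves a mutation at the modified base. A nucleotide held in a helix or covered by a protein reacts little, so a folded RNA has a few strong and many weak nucleotides, while an unfolded one reacts more evenly. Pairs of A with U are weaker than pairs of G with C. Proteins and RNA helicases of the cell, many of which need ATP, keep RNA from settling into the folds it takes up in a tube.

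The sequences around the nucleotides with large changes show what such stretches look like. They are written as DNA from the deposited table, 5′ to 3′, with the nucleotide named by its transcript position in capitals at the centre of 25 bases. The first 3 had more signal after refolding in vitro and the other 4 had less.
Ddx17 C782: ccatagggtaatCacaaaccaagat
R3hdm1 A298: aatacatttgacAtcctggctgaca
N4bp2 C542: accccacaagagCctccgagttgaa
Ddx17 C866: ttttttttgtacCtactcagggcag
Mbnl1 C735: ctgagcacacggCtgagtccaggcc
E2f3 A307: ggcgagaaggagAgacttggaaact
Jmjd1c A455: gattaaaaaaatActgctcacgaac

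The AU-rich amplicons held 10778 nucleotides, made up of A (2960), C (2194), G (2528) and T (3096), and all 5154 A and C entered the tests. Overlapping amplicons read some positions more than once, so these were 4354 distinct positions. The letters ATG occurred on the transcript strand in 50 of 54 AU-rich amplicons (92.6%) and in 77 of 107 others (72.0%). ATTTA was in 17 (31.5%) against 7 (6.54%), and GGCGG in 5 (9.26%) against 51 (47.7%). The lowest folding energy predicted by RNAfold was -0.23 kcal/mol per nucleotide (median) in the AU-rich amplicons and -0.38 in the others. The sets were split by G plus C content, so the differences in motifs and folding energy are not independent of that choice. AU-rich stretches also lay further from the 5′ end, with the first nucleotide read at a median position of 439.5 against 205.

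A library here is 1 amplicon in 1 sample. The AU-rich libraries held 711 to 624295 recovered mutation counts with a median of 54748, and 41 of the 54 amplicons had at least 5000 counts in every library. These counts come from amplified cDNA and are not independent molecules. Signal is given as CPM, the count of a nucleotide plus 0.5 on the deposited scale of about 1000000 per library. The sum over a library was not exactly 1000000 and differed between libraries. CPM therefore shows how signal is spread along an amplicon and not how reactive the amplicon was as a whole.

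The DMS profile of AU-rich RNA, over A and C combined, was flatter in the median than the rest in every sample, but not for A alone in cells. In untreated cells the AU-rich amplicons at 40% G plus C or less, and those above 45%, were no flatter than those just above 50%. The AU-rich profile was less flat after refolding in vitro. The difference between the sets is a description and was not tested. The spread of signal was summarised by the Gini coefficient over A and C, which is 0 when all nucleotides have equal signal and rises as signal concentrates on few. The median over the 54 amplicons was 0.324, 0.276 and 0.293 in the untreated samples, 0.308, 0.274 and 0.291 in the ATP-depleted samples, and 0.366, 0.367 and 0.340 in the refolded samples. The refolded samples were all above the in-cell samples. In the 107 other amplicons the median was 0.353 ± 0.019 (SD, n = 3) untreated, 0.363 ± 0.016 (SD, n = 3) ATP-depleted and 0.450 ± 0.017 (SD, n = 3) refolded. The AU-rich median was lower by 0.050 to 0.061 in the untreated samples, by 0.069 to 0.074 after ATP depletion and by 0.088 to 0.098 after refolding. Of the others, the 35 amplicons above 50% and up to 60% G plus C had 0.311 ± 0.023, 0.312 ± 0.019 and 0.402 ± 0.021. The AU-rich group means were 0.298 ± 0.024, 0.291 ± 0.017 and 0.358 ± 0.015 (SD, n = 3). Untreated, AU-rich classes had 0.322 ± 0.027 (40% or less), 0.271 ± 0.020 (up to 45%) and 0.320 ± 0.058 (above 45%). The untreated classes up to 70% and above 70% had 0.348 ± 0.018 and 0.397 ± 0.019. The sets hold A and C in different proportions, and the bases differed when taken one at a time. For A alone the AU-rich median was 0.234 ± 0.028 untreated, 0.227 ± 0.015 ATP-depleted and 0.289 ± 0.020 refolded, against 0.222 ± 0.017, 0.222 ± 0.017 and 0.308 ± 0.025 in the others (SD, n = 3), so in cells its group means were not the lower ones. For C alone it was 0.346 ± 0.027, 0.350 ± 0.016 and 0.430 ± 0.021, against 0.375 ± 0.018, 0.383 ± 0.015 and 0.487 ± 0.021 (SD, n = 3). Thinning every amplicon to its smallest library moved the AU-rich medians by little, to 0.301 ± 0.022, 0.295 ± 0.016 and 0.360 ± 0.016 (SD, n = 3) in the same order of groups. The others then had 0.355 ± 0.017, 0.365 ± 0.014 and 0.451 ± 0.017 (SD, n = 3). Thinning evens out samples within an amplicon and not depth between the sets, since the median library of the others held 34447 counts.

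**Figure D1:**
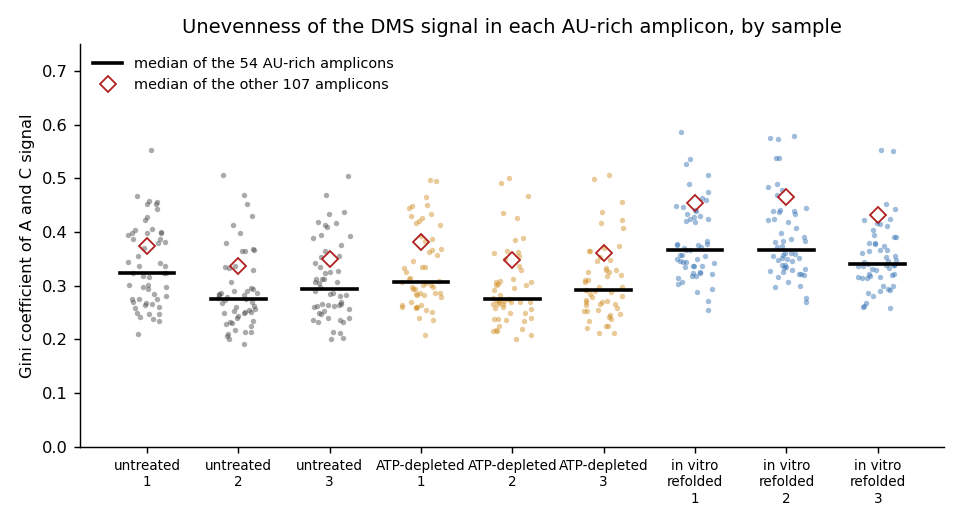
Gini coefficient of A and C signal (vertical axis, no unit) of each of the 54 AU-rich amplicons (points) in each of 9 samples (horizontal axis), with their median (bar) and the median of the other 107 amplicons (open diamond). The AU-rich median is 0.276 to 0.324 in untreated, 0.274 to 0.308 in ATP-depleted and 0.340 to 0.367 in refolded samples, and the diamond lies above the bar in all 9.

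Nucleotides strong relative to the mean of their library made up a smaller share in AU-rich amplicons than elsewhere, in cells and after refolding. Signal was divided by the mean over all nucleotides of its library to give a relative signal. That mean covers all 4 bases, and A made up 2960 of 10778 AU-rich nucleotides and 3880 of 22189 others. T carried a median of 25.1% of untreated signal in AU-rich amplicons and 15.3% in the others. A given multiple of the mean is therefore not the same level in both sets. How far this enters the shares was not tested. Nucleotides above 3 times that mean, a limit chosen after seeing the data, made up 3.79% ± 1.40 (SD, n = 3) of AU-rich A and C in untreated cells and 7.42% ± 1.15 (SD, n = 3) of A and C elsewhere. After refolding these shares were 6.97% ± 1.05 and 12.2% ± 0.51 (SD, n = 3). By base, the untreated shares were 4.83% ± 2.04 of A and 2.39% ± 0.71 of C, against 12.6% ± 2.8 and 4.59% ± 0.29 elsewhere (SD, n = 3). Nucleotides below 0.25 times the mean made up 5.30% ± 1.51 of AU-rich A and C in untreated cells, 5.74% ± 1.01 after ATP depletion and 8.90% ± 1.64 after refolding (SD, n = 3), against 5.86% ± 1.76 untreated and 14.8% ± 2.2 refolded elsewhere. By base the untreated order was the reverse, with 1.94% ± 0.99 of A and 9.83% ± 2.24 of C in AU-rich amplicons against 1.34% ± 0.36 and 8.31% ± 2.53 elsewhere (SD, n = 3). Both sets were read in the same samples, and the AU-rich share was the higher in each untreated sample for both bases. These differences by base were not tested. The median relative signal of A was 1.62 ± 0.08 in untreated and 1.63 ± 0.04 in refolded samples (SD, n = 3), where the groups overlapped. For C it was 1.00 ± 0.01 and 0.883 ± 0.026 (SD, n = 3), and each refolded sample was below each untreated one.

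Across the 161 amplicons the Gini coefficient of untreated samples went with G plus C content (Pearson r = 0.461) and with the log10 of the smallest library (r = -0.525). Within the 54 AU-rich amplicons these correlations were 0.025 and -0.438. They are descriptions over amplicons that share libraries, and neighbouring amplicons share sequence. In 21 transcripts that held AU-rich and other amplicons, the AU-rich ones had the lower mean Gini coefficient in 13 transcripts untreated and in 16 refolded, and the smaller rise in 14.

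Refolding in vitro was compared with the untreated cells in one limma fit over all 161 amplicons, with Benjamini-Hochberg adjusted p under 0.05 as the threshold. The Gini coefficient rose in 35 of the 54 AU-rich amplicons and fell in 3, against 80.1% rising and 1.86% falling over all amplicons (82.0% called). All 3 falls in the data were thus in AU-rich amplicons, 2 of Ddx17 that overlap and 1 of Tulp4. The median change was 0.066 in AU-rich and 0.092 in all amplicons. In 29 AU-rich amplicons all refolded samples lay above all untreated ones, and in 3 all lay below, against 121 and 3 of all 161. Against ATP-depleted cells, 34 rose and 3 fell (78.9% rising, 1.86% falling and 80.7% called over all amplicons), with a median change of 0.066 against 0.087 over all. With the Gini coefficient of A alone, 27 rose and 3 fell against untreated cells (60.9% and 1.86% over all), and with C alone 35 rose and 2 fell (76.4% and 1.24% over all).

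The share that rose differed along the range of base composition. Of the 10 amplicons at 40% G plus C or less, 2 rose, with a median change of 0.020. Of the 21 amplicons above 40% and up to 45%, 17 rose, with a median of 0.074, and of the 23 above 45%, 16 rose and 3 fell, with a median of 0.084. Above the limit of 50% the next 35 amplicons, up to 60%, had 31 rises and a median of 0.096. These classes were set after the values were seen, and the difference between them was not tested. The amplicons just inside the limit were Tulp4 0 to 250 (49.5%) and Ext1 581 to 831 (49.8%), whose mean Gini coefficients went from 0.404 to 0.364 and from 0.238 to 0.344 on refolding. Just outside lay Jmjd1c 154 to 404 (50.2%) and Tek 9 to 259 (50.7%), which went from 0.398 to 0.409 and from 0.307 to 0.385.

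**Figure D2:**
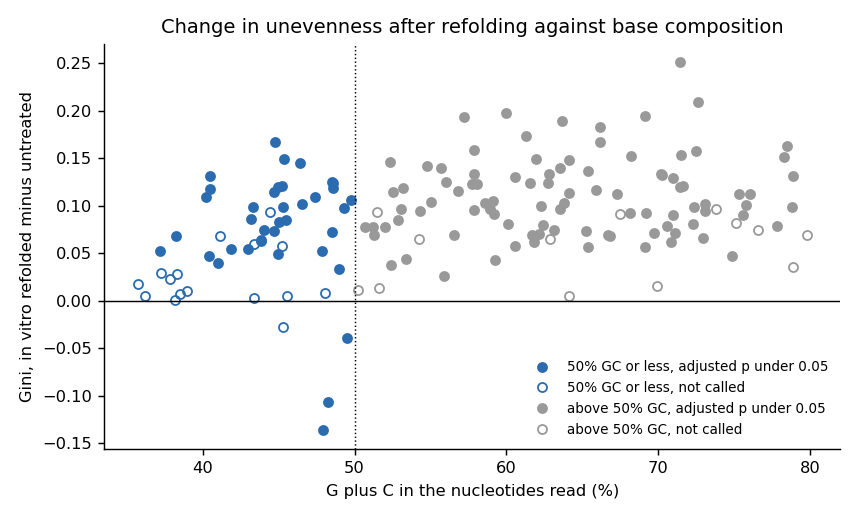
Change in the Gini coefficient from untreated to refolded (vertical axis, no unit, mean of 3 minus mean of 3) against G plus C content (horizontal axis, %) for 161 amplicons, filled where limma called a change. The 54 AU-rich amplicons lie left of the dotted line at 50%, where 35 rose, and the 3 called falls sit just left of it.

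Hexim1 409 to 659 had the largest rise. Hexim1 encodes an inhibitor of the kinase P-TEFb, which releases paused RNA polymerase II. Its Gini coefficient was 0.270, 0.254 and 0.263 untreated, 0.298, 0.260 and 0.264 after ATP depletion, and 0.438, 0.438 and 0.411 refolded. The refolded samples stood clear of both in-cell groups, by 0.167 (SE 0.013, limma adjusted p = 2.16e-05) over untreated cells. The share of its A and C below 0.25 of the mean was 3.57% untreated and 10.7% refolded, and the share above 3 times the mean 0.893% and 8.93%. Its depth was high, with at least 166066 counts in each library.

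Bcl2 640 to 890 and Mbnl1 613 to 863 followed. Bcl2 encodes an inhibitor of apoptosis. Its values were 0.394, 0.276 and 0.285 untreated and 0.475, 0.575 and 0.352 refolded, so the groups overlapped (difference 0.149, SE 0.055, limma adjusted p = 0.0349). Its smallest library held 3247 counts, and the call was lost without untreated replicate 2 (0.128) or 3 (0.133) or without refolded replicate 1 (0.146) or 2 (0.096). Mbnl1 encodes a regulator of alternative splicing, and its values were 0.30, 0.276 and 0.281 untreated and 0.506, 0.407 and 0.379 refolded. These groups did not overlap, and the rise was 0.145 (SE 0.029, limma adjusted p = 0.00224). The same 3 amplicons led against ATP-depleted cells, with rises of 0.155 in Hexim1, 0.168 in Bcl2 and 0.147 in Mbnl1. There the Bcl2 call was lost without ATP-depleted replicate 2 or 3 or refolded replicate 1 or 2 (0.114 to 0.167).

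Ddx17, which encodes a DEAD-box RNA helicase, moved the other way in the downstream part of the stretch that was read. In Ddx17 639 to 889 the Gini coefficient was 0.466, 0.469 and 0.470 untreated, 0.496, 0.50 and 0.498 after ATP depletion, and 0.324, 0.333 and 0.338 refolded. The 3 groups did not overlap, and the value fell by 0.137 on refolding (SE 0.007, limma adjusted p = 5.07e-06). In Ddx17 731 to 981 it was 0.427, 0.452 and 0.437 untreated, 0.447, 0.467 and 0.455 ATP-depleted, and 0.323, 0.358 and 0.313 refolded. Again the refolded samples were lowest, with a fall of 0.107 (SE 0.013, limma adjusted p = 0.000205). Against ATP-depleted cells the falls were 0.166 and 0.125 in size.

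Both Ddx17 amplicons held many nucleotides with little signal in cells. The share of A and C below 0.25 of the mean was 19.4% ± 1.9 untreated, 27.0% ± 3.2 ATP-depleted and 5.06% ± 1.27 refolded in Ddx17 639 to 889, and 18.7% ± 1.7, 22.5% ± 3.4 and 1.5% ± 0.65 in Ddx17 731 to 981 (SD, n = 3). With only the nucleotides at or above the series median kept, which leaves such positions out, the change from untreated turned to 0.013 in the former and 0.092 in the latter, and the latter was a called rise (limma adjusted p = 0.00203). The pair shares 44 A and C positions, 756 to 853. All 20 nucleotides with higher signal in Ddx17 639 to 889 lay there, and 19 of them were higher in both amplicons, while 4 were lower in both. Over these 44 positions the changes of the amplicons correlated with r = 0.968, both read from the same RNA samples.

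**Figure D3:**
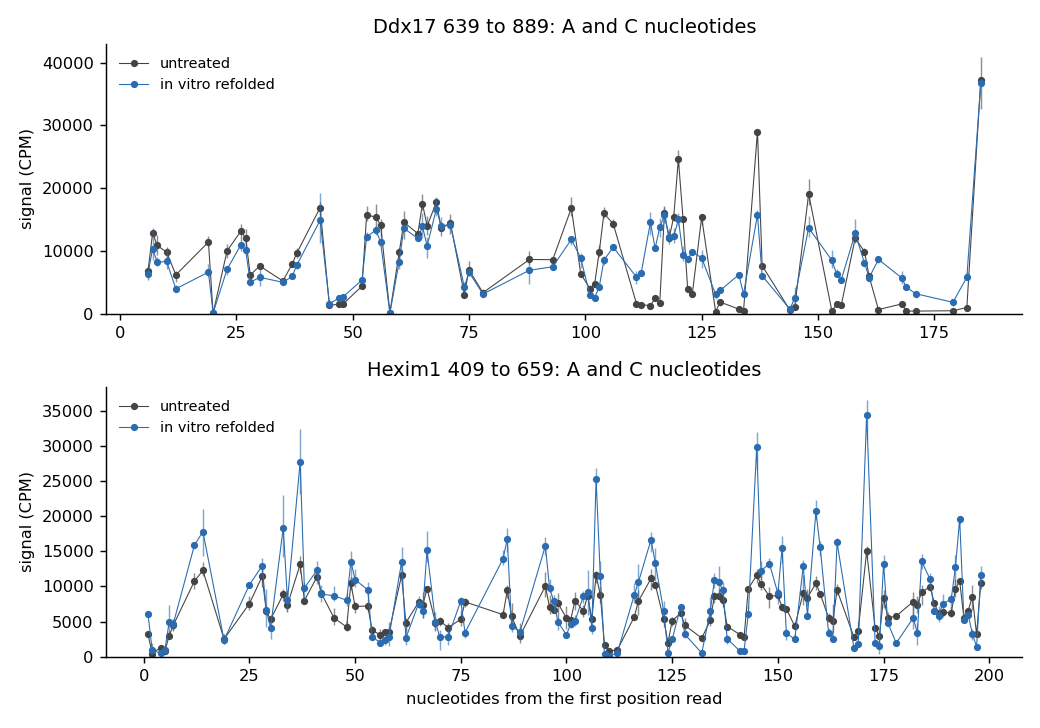
Signal of each A and C (vertical axis, CPM) along Ddx17 639 to 889 and Hexim1 409 to 659 (horizontal axis, nucleotides from the first position read), as the mean of 3 untreated and 3 refolded samples (points joined by lines) with the lowest and highest sample (vertical bars). In Ddx17 nucleotides near 0 in cells have signal after refolding beyond about 100 nucleotides, and in Hexim1 a few nucleotides rise above the rest.

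The 3 upstream amplicons of Ddx17 had no called fall. Ddx17 503 to 753 went from 0.412 to 0.384 (change -0.028, limma adjusted p = 0.143) and Ddx17 172 to 422 from 0.288 to 0.311 (change 0.023, limma adjusted p = 0.0538). Ddx17 333 to 583 rose from 0.333 ± 0.008 to 0.402 ± 0.036 (SD, n = 3, limma adjusted p = 0.00673). The third fall was in Tulp4 0 to 250, at the 5′ end of a transcript for a Tubby-like protein. Its values were 0.403, 0.397 and 0.412 untreated, 0.425, 0.389 and 0.408 ATP-depleted, and 0.357, 0.373 and 0.364 refolded. The refolded samples were below all others by a small margin, 0.040 under the untreated mean (SE 0.011, limma adjusted p = 0.0112). With nucleotides at or above the series median only, its change was 0.024 against both in-cell groups. The other AU-rich amplicons of Tulp4, 131 to 381 and 434 to 684, changed by 0.002 and by under 0.001 (limma adjusted p = 0.924 and 0.992).

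At single nucleotides, 464 of the 5154 AU-rich A and C had more signal after refolding than in untreated cells and 338 had less, which is 15.6% called against 16.3% over all 16178 nucleotides tested (8.08% higher, 8.18% lower). Against ATP-depleted cells, 510 were higher and 273 lower, against 14.9% called over all (8.31% higher, 6.56% lower). The median change over AU-rich nucleotides was 0.03 and 0.06 on the log2 scale, against 0.00 and 0.03 over all. The direction depends on scale, because CPM of a library did not always sum to 1000000: the median sum over AU-rich libraries was 970417 to 992849 in cells and 1024270 to 1063080 after refolding. With every library rescaled to one sum, an alternative added after seeing the data, 355 were higher and 413 lower than in untreated cells (5.48% and 9.96% over all), and 384 higher and 328 lower than in ATP-depleted cells (5.66% and 7.99% over all). The 802 calls against untreated cells became 444 when untreated replicate 2 was left out and 485 when it was replicate 3. The 783 calls against ATP-depleted cells became 450, 345 and 426 without ATP-depleted replicate 1, 2 or 3.

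By base, of the 2960 A, 277 were higher than in untreated cells and 122 lower, and of the 2194 C, 187 were higher and 216 lower. Over all amplicons 9.96% of A were higher and 4.05% lower, and 6.7% of C were higher and 11.2% lower. Against ATP-depleted cells 301 A were higher and 100 lower (10.1% and 3.26% over all), and 209 C were higher and 173 lower (7.02% and 8.97% over all). With rescaled libraries the counts against untreated cells were 212 and 148 for A (6.47% and 5.08% over all), and 143 and 265 for C (4.76% and 13.5% over all). The calls were also split by the pairing that RNAfold predicted. Among A predicted unpaired, 171 of 1639 were higher (10.4%) and 36 lower (2.20%), close to the 10.5% and 3.33% of the other amplicons. Among A predicted paired, 106 of 1321 were higher (8.02%) and 86 lower (6.51%), against 10.2% and 5.28% in the others. Of 880 C predicted unpaired, 94 were higher (10.7%) and 60 lower (6.82%), against 7.23% and 8.81%. Of 1314 C predicted paired, 93 were higher (7.08%) and 156 lower (11.9%), against 5.54% and 13.2%. The split by predicted pairing used CPM as deposited, where direction depends on scale, and is not given for rescaled libraries. These differences between the sets were not tested.

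Calls were spread unevenly. The AU-rich amplicons held 1 to 64 called nucleotides each against untreated cells, with a median of 10. Klf7 204 to 454, a transcription factor gene, held the fewest (1.02% of its A and C) with at least 10509 counts in each library. Of 800 A and C positions read in 2 AU-rich amplicons, 95 were called in both, all 95 with the same sign.

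Among single nucleotides the largest rise was at C782 of Ddx17. Its signal in Ddx17 639 to 889 was 905, 1388 and 1575 CPM untreated, 776, 712 and 853 CPM ATP-depleted, and 15033, 16227 and 12502 CPM refolded. The refolded samples were far above all others, by 1.98 (SE 0.11) on the log2(CPM + 3197) scale over untreated cells (limma adjusted p = 0.000186). That scale understates the change of weak nucleotides. The overlapping amplicon read it at 1408, 900 and 965 CPM untreated and 10102, 11299 and 10466 CPM refolded, a change of 1.69. Further along the same transcript C866 had the largest fall, from 7910, 11461 and 10328 CPM to 983, 1443 and 1349 CPM (change -1.55, SE 0.15, limma adjusted p = 0.000827).

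Other transcripts held changes of like size. A298 of R3hdm1, a gene for an R3H-domain protein, went from 4582, 6264 and 3497 CPM to 22338, 19182 and 17553 CPM (change 1.53, limma adjusted p = 0.000734). C542 of N4bp2, whose protein binds the ligase Nedd4, went from 3196, 8258 and 7048 CPM to 27630, 22770 and 19205 CPM (change 1.53, limma adjusted p = 0.00577). The untreated libraries held 22, 193 and 20 counts at A298, and 10, 79 and 73 at C542. In neither did the groups overlap, but the rule by which nucleotides were named required this.

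C735 of Mbnl1 fell from 8541, 5673 and 4960 CPM untreated to 438, 204 and 623 CPM refolded (change -1.39, limma adjusted p = 0.00592), where the refolded libraries held 3, 2 and 27 counts. A307 of E2f3, a gene for a cell-cycle transcription factor, fell from 13066, 7428 and 7213 CPM to 3065, 525 and 2673 CPM (change -1.24, limma adjusted p = 0.0154). A455 of Jmjd1c, which encodes a Jumonji-domain protein, fell from 10770, 8643 and 11915 CPM after ATP depletion to 305, 3067 and 4046 CPM (change -1.33, limma adjusted p = 0.0121). The refolded libraries held 59, 4 and 49 counts at A307, and 1, 10 and 91 at A455. Refolded samples were the lowest at all 3 nucleotides, which the naming rule required against the group compared. C867 of Chtop, an mRNA export factor gene, had 14971, 10080 and 12134 CPM after ATP depletion and 362, 415 and 7984 CPM refolded (change -1.56, limma adjusted p = 0.0351). The low samples held 0 counts there, and the call was lost when any library but refolded replicate 3 was left out (adjusted p 0.0529 to 0.105).

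The mean log2 signal of A and C in an amplicon was compared next, on a scale where the sum over all bases of a library is near 1000000. By the medians given above, that sum was higher after refolding than in cells, which enters small changes of the mean. With A and C together, 2 AU-rich amplicons were higher after refolding than untreated and 0 lower (1.86% higher and 6.83% lower over all amplicons, 8.70% called), a count that ranged from 0 without untreated replicate 1 to 4 without ATP-depleted replicate 2, and was 1 without any other sample except ATP-depleted replicate 3. Against ATP-depleted cells 9 were higher and 0 lower (7.45% and 5.59% over all, 13.0% called), which became 5 without ATP-depleted replicate 2 or refolded replicate 1 or 2, and 18 without ATP-depleted replicate 3. For A alone, 9 rose against untreated cells and 0 fell (24.8% and 1.24% over all, 26.1% called), but 1 rose with rescaled libraries (2.48% over all). Against ATP-depleted cells 20 rose and 0 fell for A (39.8% and 2.48% over all, 42.2% called), or 3 and 0 with rescaled libraries (3.11% and 0.621% over all). For C alone, 3 rose and 8 fell (1.86% and 31.1% over all, 32.9% called), or 1 and 17 with rescaled libraries (0.621% and 57.8% over all). Against ATP-depleted cells 5 rose and 3 fell for C (4.97% and 19.9% over all), or 5 and 10 with rescaled libraries (3.11% and 46.6% over all). The median change of AU-rich amplicons was 0.09 for A and -0.02 for C, against 0.09 and -0.05 over all, and 0.01 and -0.08 with rescaled libraries, against 0.01 and -0.12 over all.

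Ddx17 503 to 753 had the largest rise of A, from 13.24, 13.20 and 13.32 untreated to 13.56, 13.55 and 13.48 refolded on the log2 scale (change 0.27, limma adjusted p = 0.00658). It remained called with rescaled libraries, at 0.22 (limma adjusted p = 0.0379). Esco1 291 to 541, from a cohesin acetyltransferase gene, changed by 0.20 (limma adjusted p = 0.0247) but by 0.13 with rescaled libraries (limma adjusted p = 0.123). For C, Ddx17 639 to 889 rose from 12.98, 13.01 and 13.03 to 13.22, 13.21 and 13.20, a change of 0.21, or 0.20 with rescaled libraries (limma adjusted p = 0.000221 and 0.000140). The groups did not overlap. The largest falls of C were in Nfe2l1 149 to 399, of a stress-response transcription factor gene, and Ext1 581 to 831, of a heparan sulfate polymerase gene. Nfe2l1 went from 12.87, 12.89 and 12.91 to 12.74, 12.75 and 12.73, and Ext1 from 13.01, 13.01 and 13.04 to 12.87, 12.90 and 12.85. Both fell by 0.15 (limma adjusted p = 0.00150 and 0.00149) and, with rescaled libraries, by 0.20 and 0.21.

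**Figure D4:**
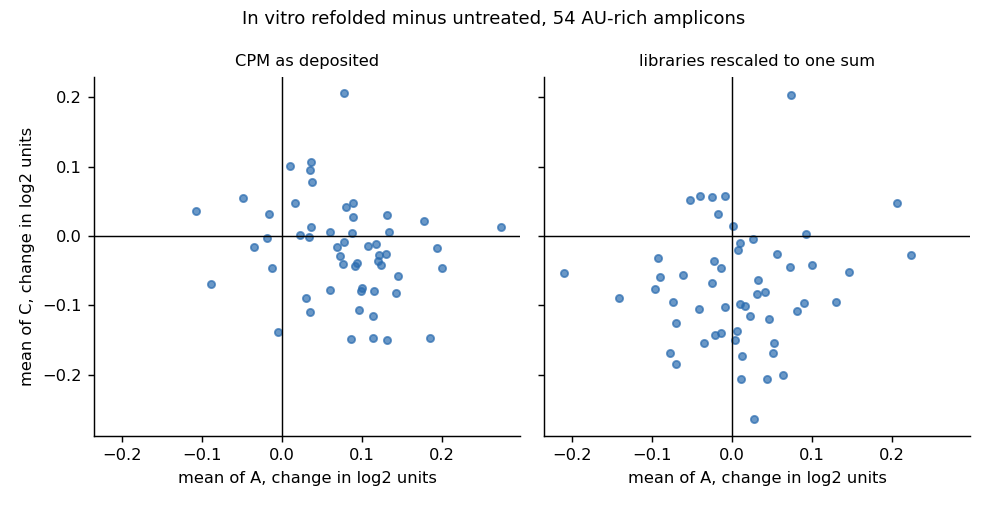
Change in the mean of C against the change in the mean of A (both axes in log2 units, refolded minus untreated) for the 54 AU-rich amplicons, with CPM as deposited (left) and with every library rescaled to one sum (right). The median for A is 0.09 on the left and 0.01 on the right, and for C it is -0.02 and -0.08.

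The signal of the AU-rich amplicons was next set against the RNAfold prediction made from sequence alone at 37 °C. The measure was the area under the curve with which signal separates A and C predicted unpaired from those predicted paired, which is 0.5 for no separation and 1 for a complete one. Its sample medians were 0.659, 0.661 and 0.675 untreated, 0.634, 0.673 and 0.662 ATP-depleted, and 0.678, 0.680 and 0.690 refolded. The refolded samples were the highest, by a small margin. In the other amplicons the group means of this median were 0.724 ± 0.006 untreated and 0.703 ± 0.015 refolded (SD, n = 3). The area pools A and C, and A had more signal than C and was more often predicted unpaired. The predicted unpaired shares were 55.4% of A and 40.1% of C in AU-rich amplicons, and 65.8% and 35.6% in the others. Base identity therefore enters the area differently in each set, and the difference between the sets was not tested. Against untreated cells, the area rose in 11 AU-rich amplicons and fell in 1 (11.8% and 10.6% over all amplicons, 22.4% called). Against ATP-depleted cells 13 rose and 4 fell (11.2% and 13.7% over all), with 17 calls becoming 11 without ATP-depleted replicate 3. With A alone the calls against untreated cells were 4 in place of 12.

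The largest rise, in Ddx17 333 to 583, was from 0.569, 0.536 and 0.577 untreated to 0.787, 0.803 and 0.762 refolded (change 0.223, SE 0.016, limma adjusted p = 4.27e-05). The only fall was in Tulp4 0 to 250, from 0.838, 0.845 and 0.794 to 0.698, 0.709 and 0.711 (change -0.120, SE 0.015, limma adjusted p = 0.000695). In neither did the groups overlap. Ddx17 639 to 889, with the largest Gini fall, was near 0.5 in cells (0.479 ± 0.003) and at 0.562 ± 0.021 refolded (SD, n = 3, limma adjusted p = 0.00179). These amplicons were named after their values were seen.

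**Figure D5:**
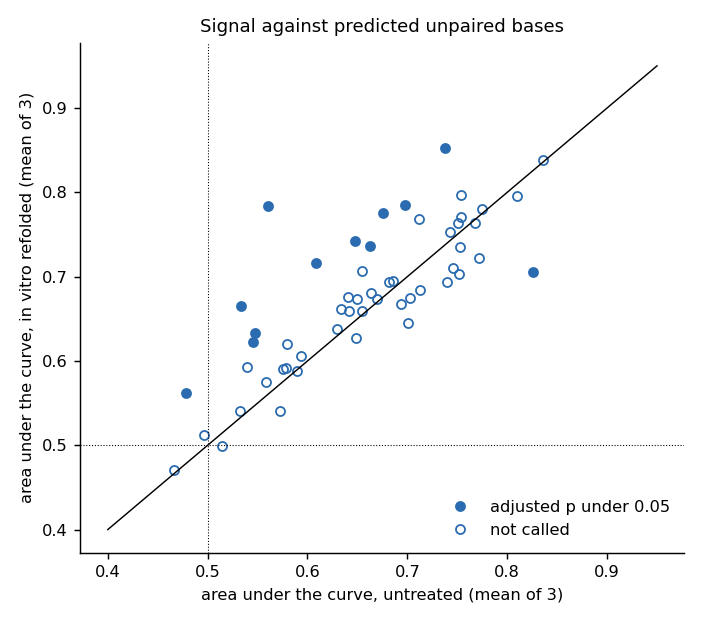
Area under the curve of signal against predicted unpaired bases (no unit) in refolded samples (vertical axis) and untreated samples (horizontal axis), means of 3, for the AU-rich amplicons, filled where limma called a change. On the diagonal line both are equal, and 11 filled points lie above it and 1 below.

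ATP depletion was compared with untreated cells in the same fits. By limma, 0 of 5154 nucleotides, 0 of 54 mean signals and 0 of 54 Gini coefficients were called (0.0% over all in each), while 184 nucleotides, 3 means and 3 Gini coefficients had an unadjusted p under 0.05, out of 636 nucleotides, 10 means and 13 Gini coefficients over all amplicons. The median Gini change was 0.003 against 0.004 over all amplicons. Across the 5154 AU-rich A and C, untreated and ATP-depleted samples correlated with a mean r of 0.845 over 9 pairs, against 0.816 over the 3 pairs of untreated samples and 0.689 between untreated and refolded ones.

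In the area under the curve 0 AU-rich amplicons rose and 1 fell after ATP depletion (0.0% and 0.621% over all amplicons), and that call was lost without any single in-cell sample or without refolded replicate 3, with A alone, with C alone, with only the 6 samples compared and with the replicate number as a block. In Ddx17 639 to 889 the Gini coefficient of the ATP-depleted samples lay above that of the untreated ones, by 0.030 (limma adjusted p = 0.160). With the 115 amplicons that had at least 5000 counts in every library, this difference was called (limma adjusted p = 0.0496).

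Among the nucleotides with the smallest p after ATP depletion was C559 of Eif5, a translation initiation factor gene. It read 5999, 5525 and 5713 CPM untreated and 2946, 3373 and 3052 CPM ATP-depleted (change -0.50, SE 0.09, limma adjusted p = 1.00). The groups did not overlap there. An overlapping amplicon read C559 at 4325, 4553 and 5378 CPM untreated and 3136, 3268 and 3089 CPM ATP-depleted, a smaller change of -0.32. C559 lies 8 and 6 nucleotides from the last position read in these amplicons. In Jmjd1c 292 to 542 and Tulp4 434 to 684, which had other large differences (0.033 and -0.037), the untreated and ATP-depleted samples overlapped.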

How the data were processed

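DMS mutational profiling of 9 samples in 3 groups was taken from the table deposited by the authors, which holds log2 values per nucleotide and sample. The submitters' processing notes name bcl2fastq, Bowtie2 and limma. The sources used here do not give the mutation counter, the build or the filters. Raised from the log2 scale and multiplied by the right factor, the values of a library are whole counts plus 0.5, with 100% whole in 1449 of 1449 libraries (tolerance 0.0001). They are taken as mutation counts. The table gives no read coverage, so a level is a share of signal and not a rate. CPM is 2 to the power of the deposited value.

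For tests a pseudocount of 3197 was added to CPM before log2, which is 0.5 of the median over all A and C, 6394 CPM. The same limma 3.58.1 model in R 4.3.3, two-sided, was fitted to all 9 samples with a mean per group and adjusted over all 16178 nucleotides or 161 amplicons. The 2 comparisons with refolded RNA share the refolded samples. Pairing was predicted at 37 °C with ViennaRNA 2.7.2 on the nucleotides read, with unpaired meaning a probability over 0.5. Gene symbols came from the RefSeq table of GRCm38.p6, which matched 54 of 54 AU-rich amplicons. Its coordinates were not used. The scripts were tested on simulated data.

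Named amplicons were the 3 with the largest Gini rise and fall and the 2 with the largest rise and fall of the A and C means, called ones first. Named nucleotides were the 3 largest called rises and falls, 1 per transcript, with groups that did not overlap and at least 60 counts in the higher group. Uncalled ones are given where a comparison made no call. Results of 1 amplicon that these rules select are not reported here. The members, lists and rules were chosen with earlier results of these data known. Replicate numbers were not treated as pairs in the main fits. The correlation of deviations between same-numbered samples was at most 0.09996. Between untreated and ATP-depleted samples it was 0.041, 0.09996 and 0.031 for the same number, and -0.054 to 0.0008 for different numbers. Whether the numbers pair these samples was therefore not settled, and fits with the number as a block are given below.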

Additional observations from a re-analysis of the deposited data

Results flagged for a closer look

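DMS at neutral pH marks mainly A and C, but the pH of the probing is not given here. The comparisons left G and T out, and both carried signal in the AU-rich amplicons. The median share of an amplicon's signal on T was 25.1% ± 3.0 untreated, 27.5% ± 4.0 after ATP depletion and 23.7% ± 0.2 refolded (SD, n = 3). On G it was 5.75% ± 0.69 untreated, 5.68% ± 0.59 after ATP depletion and 5.28% ± 0.11 refolded (SD, n = 3). For both bases the samples of the groups overlapped. The median relative signal of T was 0.807, 0.897 and 0.698 in the same order, against 1.00, 0.967 and 0.883 for C. How much of either share is present in RNA unexposed to DMS was not measured.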

How the results depend on the processing

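All counts here are of AU-rich nucleotides or amplicons called by limma. The Gini calls against refolded RNA kept within 1.5 times of their main counts in all alternatives run, at 26 to 39 in place of 38 against untreated and 31 to 40 in place of 37 against ATP-depleted cells. Nucleotide calls against untreated cells (802) were 384 with A alone, 422 with C alone, 376 at or above the median only, 414 with the 6 samples compared and 444 to 775 with single samples left out. Those against ATP-depleted cells (783) were 385, 396 and 410 in the first 3 of these settings, and 345 to 794 with single samples left out. The first 3 settings tested fewer nucleotides, so their counts are not like for like with 802 and 783. In the main fit 399 A and 403 C were called against untreated cells, and 401 A and 382 C against ATP-depleted cells. Mean signal calls against untreated cells (2) were 9 with A alone, 11 with C alone, 26 at or above the median only, 1 with thinned counts, 6 without the first and last 25 nucleotides, 9 and 0 with a pseudocount of 0.1 and 1 times the median, 8 with the deposited log2 values, 7 with rescaled libraries and 0 to 4 with single samples left out. Those against ATP-depleted cells (9) were 20 with A alone, 38 at or above the median only, 16 with a pseudocount of 1 times the median, 5 with the deposited log2 values, 4 with rescaled libraries and 5 to 18 with single samples left out. Gini calls after ATP depletion (0) were 1 without the first and last 25 nucleotides and 2 in amplicons with at least 5000 counts. Calls of agreement with the predicted fold were 4 with A alone against untreated cells (12), 8 with A alone and 11 to 16 with single samples left out against ATP-depleted cells (17), and after ATP depletion (1) 0 with A alone, C alone or the 6 samples, and 0 to 1 with single samples left out. With the replicate number as a block, mean signal calls against untreated cells were 4, nucleotide calls 670 and 663, and the fold call after ATP depletion was lost (0). Reversed were the Gini falls at or above the median only, with changes of 0.0242 against untreated and 0.0238 against ATP-depleted cells in Tulp4 0 to 250, 0.0132 against untreated cells in Ddx17 639 to 889, and 0.0925 and 0.0863 in Ddx17 731 to 981. That setting leaves out weak nucleotides. In other respects the cause was not tested. In 13 AU-rich amplicons a library held under 5000 counts, which limits what their nucleotides can show.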
